A study of Mus musculus with 2 samples.

Results

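The 8 CC chemokine genes Ccl2, Ccl7, Ccl8, Ccl12, Ccl3, Ccl4, Ccl5 and Ccl9 were followed across single cells sorted from the region of the mouse cribriform plate. They were taken by name, 8 of the 31053 genes of the feature list, in every cell that showed 200 genes or more and had no more than 20% of its transcripts from mitochondria. Transcripts were counted by unique molecular identifiers (UMIs), tags that let each captured molecule be counted once. The cells came from wild-type C57BL/6J females, 10 weeks old, either healthy or with experimental autoimmune encephalomyelitis (EAE), an induced autoimmune inflammation of the central nervous system. Each condition was a single pool of 5 mice. Tissue that also took in olfactory bulb and nasal mucosa was broken up by pressing it through a mesh, and living cells positive for podoplanin and CD31 and negative for the leukocyte protein CD45 were sorted, a gate aimed at meningeal lymphatic endothelium. Barcodes carry the suffix 1 or 2, but neither the labels nor the tables analysed here say which suffix belongs to which condition. The suffixes are called library 1 and library 2 below, and no comparison of the conditions was made.

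CC chemokines are small secreted proteins, named for a pair of adjacent cysteines near their start, that draw leukocytes along a concentration gradient through receptors on the leukocyte surface. Ccl2, Ccl7 and Ccl12 encode monocyte chemoattractant proteins, which act mainly through the receptor CCR2 on inflammatory monocytes, and Ccl8 encodes a further protein of that family. Ccl3, Ccl4 and Ccl5 encode attractants of T cells and myeloid cells, and Ccl9 encodes a ligand of CCR1. Microglia, the macrophages of the brain, transcribe several of these genes quickly once activated, and in EAE such chemokines are known to accompany the entry of monocytes and T cells.

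The feature which names the family can be read in the coding sequence. The following stretches of 36 bases of 7 of the genes, from the GENCODE M21 transcripts, show the pair of cysteine codons in capitals, and are given to show how alike and how distinct the counted genes are.
Ccl2: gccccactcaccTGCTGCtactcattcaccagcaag
Ccl7: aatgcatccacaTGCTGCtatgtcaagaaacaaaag
Ccl8: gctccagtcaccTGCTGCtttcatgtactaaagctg
Ccl12: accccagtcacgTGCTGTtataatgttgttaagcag
Ccl4: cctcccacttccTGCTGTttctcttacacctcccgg
Ccl5: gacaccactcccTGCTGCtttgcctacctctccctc
Ccl9: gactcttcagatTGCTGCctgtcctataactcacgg
Compared base by base, Ccl8 and Ccl12 shared 26 of the 36 bases, and Ccl12 and Ccl9 shared 10. The first cysteine codon of the pair was codon 34 in Ccl2 and Ccl4, codon 33 in Ccl7, Ccl12 and Ccl5, codon 32 in Ccl8 and codon 57 in Ccl9.

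Over whole transcripts the 8 genes shared little sequence, with 1 exception. Of all stretches of 21 bases, 0.378% of Ccl2 occurred in another gene's transcript, the longest being 23 bases shared with Ccl7. Ccl8, Ccl3, Ccl4 and Ccl5 shared none on the sense strand. Ccl9 was that exception, with 7.50% of its stretches shared and a longest match of 73 bases, so its counts are less certain. The genes lie in 2 groups on chromosome 11. Ccl2, Ccl7, Ccl12 and Ccl8 lie close together with Ccl11 among them, and Ccl5, Ccl9, Ccl3 and Ccl4 with Ccl6 among them. In the annotation, Gm17268 overlaps Ccl2 on the opposite strand, and it had 0 UMIs in the whole matrix.

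Upstream sequence was at hand in RefSeq (build GRCm38.p6) for 4 of the 8 genes, Ccl12, Ccl8, Ccl3 and Ccl9, and is shown because the first 2 stood higher in library 2 and the others lower. The 150 bases before each start site are printed on the gene's own strand, with matches to the motifs below in capitals.
Ccl12, chr11:82101695-82101844, plus strand: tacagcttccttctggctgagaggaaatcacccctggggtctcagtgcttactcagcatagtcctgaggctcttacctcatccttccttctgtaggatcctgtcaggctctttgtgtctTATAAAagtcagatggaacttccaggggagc
Ccl8, chr11:82115035-82115184, plus strand: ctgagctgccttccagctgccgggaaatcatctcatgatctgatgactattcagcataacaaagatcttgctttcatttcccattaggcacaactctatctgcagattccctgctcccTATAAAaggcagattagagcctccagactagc
Ccl3, chr11:83649379-83649528, minus strand: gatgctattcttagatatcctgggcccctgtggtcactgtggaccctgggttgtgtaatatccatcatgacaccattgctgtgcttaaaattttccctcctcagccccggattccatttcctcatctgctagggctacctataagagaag
Ccl9, chr11:83578637-83578786, minus strand: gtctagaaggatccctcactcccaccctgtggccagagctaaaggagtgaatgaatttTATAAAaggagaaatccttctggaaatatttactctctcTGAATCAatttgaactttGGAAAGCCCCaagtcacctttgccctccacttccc
The 250 bases before each start were searched for TATAAA on the gene's strand (found in 7.59% of 32851 RefSeq promoters), and on both strands for the AP-1 letters TGANTCA (6.75%), the NF-kappaB motif (7.25%), the interferon-stimulated response element, GAAA and GAAA set 2 bases apart (2.98%), the STAT element TTCNNNGAA (7.02%) and the C/EBP letters TTGCNNAA (9.56%). TATAAA lay at position -31 in Ccl12, -32 in Ccl8 and -92 in Ccl9, counted from the start site. Ccl9 also held the AP-1 letters at -53 and an NF-kappaB match at -35, and these matches did not overlap. None of the 6 motifs was matched in the Ccl3 window.

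Library 1 held 3406 kept cells with 25766058 UMIs and library 2 held 1922 with 20282053, at medians of 7334 and 9782.5 UMIs per cell. Transcripts of the cells the gate aimed at were sparse. Pdpn, the podoplanin gene, had 30 and 6 UMIs, Pecam1, which encodes CD31, was seen in 12.2% and 5.31% of cells (510 and 122 UMIs) and Prox1, a regulator of lymphatic identity, in 8.51% and 6.04% (380 and 127 UMIs). Ptprc, which encodes CD45, was seen in 81.9% and 81.1% of cells. Microglia-like clusters held 90.7% and 89.3% of the kept cells. Clusters 2, 3, 4, 5, 6 and 9 held most of them in library 1 and clusters 12, 15, 16 and 17 in library 2. A total of 8 barcodes occurred in both libraries, 7 of them among the kept cells of each. Levels are given as CPM, the UMIs of a gene divided by all UMIs of the kept cells and scaled so that 10000 CPM is 1% of them. Transcripts were counted as molecules, so no gene length enters and levels can be set against each other. With 1 library on each side there is no replicate and no test. Unless said otherwise, intervals are exact 95% intervals that cover counting error only. Where a count is 0 the limit given is what 3 counts would make, and a difference between the libraries compares these libraries alone.

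As a sum, the 8 genes took nearly the same share of the RNA in both libraries, but their makeup differed. Together they held 295097 of the UMIs of library 1 (1.15%) and 218978 of those of library 2 (1.08%). Ccl2, Ccl7, Ccl8 and Ccl12 made up 14.6% of the chemokine UMIs in library 1 and 49.3% in library 2. Their summed level stood at 1672 and 5318 CPM, while that of Ccl3, Ccl4, Ccl5 and Ccl9 stood at 9781 and 5479 CPM. Ccl4 alone supplied 55.7% of the chemokine UMIs in library 1 and 25.1% in library 2.

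Of the 8 genes, 5 were at least 2-fold higher in library 2, where 14.2% of the 13891 genes with at least 20 UMIs were, and 2 were at least 2-fold lower, where 8.37% of all genes were. The median log2 ratio of library 2 over library 1 was 1.40 over the 8 genes and 0.04 over all genes with UMIs in both libraries. The higher genes were the 4 of the monocyte chemoattractant family and Ccl5. Ccl4 and Ccl9 were the lower ones. Ccl3 was also lower but by less than 2-fold.

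**Figure D1:**
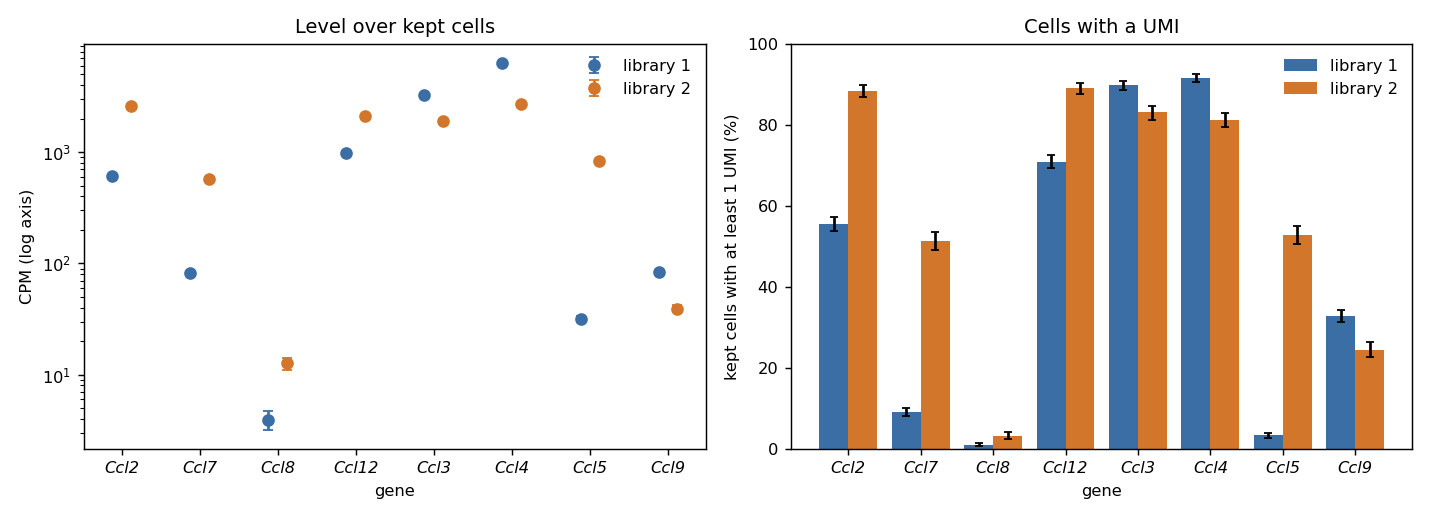
Level of each CC chemokine gene over all kept cells (left, CPM on a log axis) and share of kept cells with at least 1 UMI (right, %) in library 1 and library 2. Points and bars are single libraries and error bars are exact 95% intervals for counting error. Ccl5 stands at 31.7 and 838 CPM, the widest gap, while Ccl3, Ccl4 and Ccl9 stand lower in library 2.

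Among the monocyte attractants, Ccl2 (ENSMUSG00000035385) stood at 611 CPM in library 1 (601 to 620) and 2625 CPM in library 2 (2602 to 2647), 4.30-fold higher in library 2 (4.22 to 4.38). It had a UMI in 55.5% and 88.5% of cells. With every cell thinned to 2000 UMIs, which left out 147 and 27 shallower cells, the shares were 36.9% and 77.4%. Ccl7 (ENSMUSG00000035373), its nearest neighbour on the chromosome, stood at 81.5 CPM (78.1 to 85.1) and 578 CPM (567 to 588), 7.09-fold higher in library 2 (6.77 to 7.43). Its transcripts were in 9.16% and 51.3% of cells, and in 4.60% and 33.2% of thinned cells. Both genes were thus higher in library 2 in level and in the share of cells holding them.

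Ccl12 (ENSMUSG00000035352) stood at 976 CPM (963 to 988) and 2103 CPM (2083 to 2123), 2.16-fold higher in library 2 (2.12 to 2.19). It was seen in 71.0% and 89.1% of cells, and in 48.8% and 72.9% of thinned cells. In library 1 there were 0.626 Ccl2 UMIs for each Ccl12 UMI, and in library 2 there were 1.25, so the order of this pair was turned. Ccl8 (ENSMUSG00000009185) was the least abundant of the 8, at 3.88 CPM (3.16 to 4.72; 100 UMIs) and 12.6 CPM (11.1 to 14.3; 256 UMIs). It was 3.25-fold higher in library 2 (2.57 to 4.14), a log2 ratio of 1.70. The log2 ratio was 0.42 as a mean of per-cell CPM and 4.04 in microglia-like clusters alone.

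Among the other members, Ccl4 (ENSMUSG00000018930) was the most abundant member in both libraries. It stood at 6384 CPM (6353 to 6415) and 2709 CPM (2686 to 2732), 2.36-fold higher in library 1 (2.33 to 2.38). Ccl3 (ENSMUSG00000000982) stood at 3283 CPM (3261 to 3305) and 1892 CPM (1873 to 1911), 1.74-fold higher in library 1 (1.71 to 1.76). Both genes were detected in most cells, Ccl4 in 91.7% and 81.3% and Ccl3 in 89.8% and 83.1%. The ratio of Ccl4 to Ccl3 UMIs was 1.94 in library 1 and 1.43 in library 2.

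Ccl5 (ENSMUSG00000035042), which attracts T cells and monocytes, differed most, at 31.7 CPM (29.6 to 34.0; 817 UMIs) and 838 CPM (826 to 851; 17005 UMIs). That is 26.4-fold higher in library 2 (24.6 to 28.4), a log2 ratio of 4.72, which was 5.47 after thinning to 2000 UMIs. Its transcripts were in 3.35% and 52.8% of cells, and in 1.66% and 33.4% of thinned cells. Ccl9 (ENSMUSG00000019122) stood at 83.0 CPM (79.5 to 86.6) and 39.1 CPM (36.4 to 41.9), 2.12-fold higher in library 1 (1.96 to 2.31). Its log2 ratio, -1.09, was -0.96 and so short of 2-fold when the totals were taken without transcripts of mitochondria, ribosomal proteins and haemoglobin, and -0.92 with a pseudocount of 10 CPM.

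In order of level, library 1 ran Ccl4, Ccl3, Ccl12, Ccl2, Ccl9, Ccl7, Ccl5, Ccl8, and only the intervals of the neighbours Ccl9 and Ccl7 overlapped. Library 2 ran Ccl4, Ccl2, Ccl12, Ccl3, Ccl5, Ccl7, Ccl9, Ccl8, and no neighbours overlapped. Microglial genes did not share the direction of Ccl2. Cx3cr1, which encodes the fractalkine receptor, stood at 2135 and 1308 CPM, and the growth factor receptor gene Csf1r at 2206 and 1825 CPM. Actb, the beta-actin gene, stood at 6923 and 5256 CPM.

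Sensory neuron-like cells, which should lack these genes, gave a background. Whether free RNA or doublets brought it was not tested. The 37 sensory neuron-like cells of library 2, at a median of 11227 UMIs, had Ccl4 in 27.0%, Ccl3 in 21.6%, Ccl2 in 18.9%, Ccl7 in 8.11% and Ccl12 and Ccl5 each in 2.70% of cells, at no more than 23.3 CPM each. For Ccl8 and Ccl9 it was 0 of 37 cells, which allows a share of up to 8.11%. In library 1 that cluster had 7 cells, so a marker rule was used: 20 cells with at least 3 sensory neuron markers and at most 2 of the 7 microglia markers had Ccl4 in 11, Ccl3 in 5, Ccl2 in 3, Ccl12 in 2, and Ccl8 and Ccl5 each in 1 of the 20, at a median of 4606 UMIs and at no more than 209 CPM each. The rule was not part of the plan. It leaves out barcodes that carry more microglial RNA, so its low counts are in part set by the rule. By the same rule 41 cells of library 2 had no more than 21.5 CPM each. For Ccl7 and Ccl9 it was 0 of 20 cells, which allows a share of up to 15%. The shares of Ccl8 in both libraries and those of Ccl5 and Ccl7 in library 1 lay below these limits, so for them the share of cells is not read as expression, and the cells with many UMIs are described instead. Other non-macrophage clusters held more of these transcripts. The 63 epithelium-like cells of library 1 had Ccl4 in 92.1% at 2126 CPM, at a median of 831 UMIs. Olfactory ensheathing glia-like cells had Ccl4 in 62.5% at 5091 CPM in library 1 and Ccl5 in 41.0% at 821 CPM in library 2. Microglia markers summed to 2100 CPM in those epithelium-like cells. In the ensheathing glia-like cells they summed to 6890 and 2443 CPM.

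The transcripts were unevenly spread over cells. For each gene the cells were sorted by its UMIs, and the fewest cells that together held 50% of the gene's UMIs are called its leading cells. For Csf1r these were 33.1% and 30.5% of the kept cells of the libraries, for Cx3cr1 31.0% and 27.4% and for Actb 30.5% and 27.0%. For all UMIs together they were 37.1% and 34.8%. Every one of the 8 chemokine genes needed fewer cells than these.

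Ccl3 and Ccl4 were the most evenly spread of the 8 genes in library 1, and Ccl3 and Ccl2 in library 2. The leading cells of Ccl3 were 484 in library 1 (14.2%; 13.1% to 15.4%) and 288 in library 2 (14.98%; 13.4% to 16.7%), and those of Ccl4 were 454 (13.3%) and 233 (12.1%). The intervals for Ccl3 take leading cells as a binomial count, which they are not, and are a rough guide only. Genes with few UMIs have few leading cells by counting alone, so abundant genes are the fitting background. Of the genes with at least 10000 UMIs, 6.04% of 364 in library 1 and 4.17% of 264 in library 2 had leading cells that made up under 15% of the kept cells, and the medians were 25.4% and 27.0%. These limits of 10000 UMIs and 15% were not part of the plan. In library 1 all 4 of the chemokine genes that abundant, Ccl2, Ccl12, Ccl3 and Ccl4, lay under 15%. In library 2 all 6 that abundant did, these and Ccl7 and Ccl5, with Ccl3 only just so. The limit was crossed by some of them in other settings: after thinning to 2000 UMIs Ccl3 stood at 15.04% in library 1 and Ccl2 at 15.8% in library 2, and in microglia-like clusters alone Ccl3 stood at 15.3% and 16.4% and Ccl2 at 16.2% in library 2. The share over all abundant genes was not recomputed for these settings.

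The monocyte attractants spread to a larger share of cells in library 2. Leading cells of Ccl2 made up 6.28% of library 1 (214 cells) and 14.8% of library 2 (285 cells). Those of Ccl12 made up 6.58% (224 cells) and 13.2% (254 cells), and those of Ccl7 0.851% (29 cells) and 6.92% (133 cells). After thinning to 2000 UMIs the shares were 6.26% and 15.8% for Ccl2, 7.18% and 12.8% for Ccl12 and 0.706% and 6.44% for Ccl7, so depth per cell moved them little.

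Leading cells of Ccl5, Ccl7 and Ccl8 made up under 5% of library 1, and those of Ccl5 and Ccl8 under 5% of library 2, a limit passed by 1.21% and 1.26% of the genes with at least 1000 UMIs. Ccl8 in both libraries and Ccl5 in library 1 had fewer UMIs than that. The leading cells of Ccl5 were 6 in library 1 (0.176%) and 85 in library 2 (4.42%). Those of Ccl8 were 3 and 5. Ccl9, with a median of 1 UMI in the cells that held it, had leading cells of 7.63% and 6.30%, and of 4.60% and 3.32% after thinning, under the limit of 5%.

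**Figure D2:**
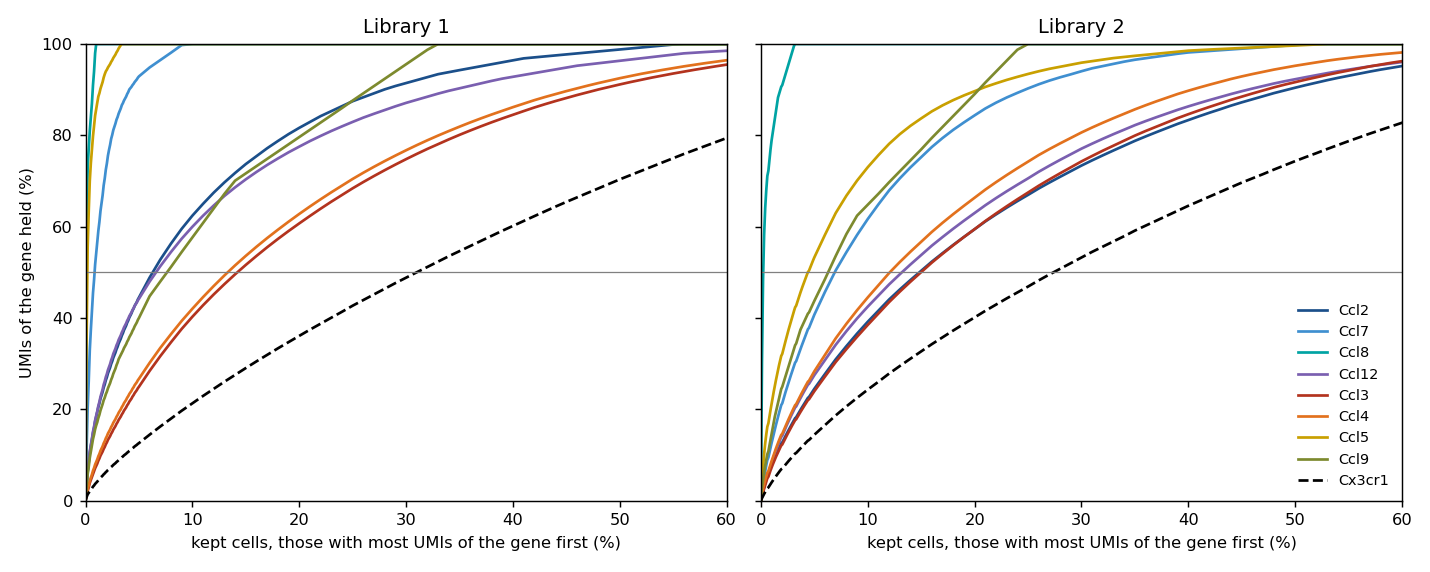
Share of a gene's UMIs (vertical axis, %) held by a given share of the kept cells, those with most UMIs of the gene first (horizontal axis, %), for the 8 CC chemokine genes and, dashed, Cx3cr1. The grey line marks 50%; it is crossed at 6.28% of cells for Ccl2 in library 1 and at 14.8% in library 2, and at 31.0% and 27.4% for Cx3cr1.

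Single cells reached high counts. The highest count of Ccl4 in a cell was 729 UMIs in library 1 and 383 in library 2, that of Ccl3 318 and 210, and that of Ccl2 164 and 301. For these abundant genes no single cell held much of the sum: the highest Ccl4 cell held 0.443% and 0.697% of its library's Ccl4. A single cell did hold 17.5% of the Ccl5 of library 1 and 20 of its 100 Ccl8 UMIs, and 17.2% of the Ccl8 of library 2. In cells with a UMI, the median Ccl2 count was 4 in library 1 and 20 in library 2.

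The number of chemokine genes in a cell was larger in library 2. In thinned cells the median was 3 of the 8 genes in library 1 (3259 cells) and 4 in library 2 (1895 cells). None was seen in 3.68% and 3.38% of thinned cells, and at least 1 gene of each of the 2 chromosomal groups in 61.2% and 82.3%. Cells with only genes of the group of Ccl3, Ccl4, Ccl5 and Ccl9 were 32.3% and 5.44%, and cells with only the other group 2.85% and 8.92%.

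The gene with the most UMIs in a cell differed as well. Ccl4 led in 60.4% of the kept cells of library 1, followed by Ccl3 in 22.0%, Ccl12 in 7.90% and Ccl2 in 2.94%. In library 2, Ccl2 led in 25.3%, Ccl12 in 24.04%, Ccl4 in 23.8%, Ccl3 in 11.4% and Ccl5 in 7.91%. In library 2 the lead was thus spread over more genes. The 8 genes made up a median of 0.769% and 0.848% of a cell's UMIs, and over 5% in 34 and 4 cells.

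**Figure D3:**
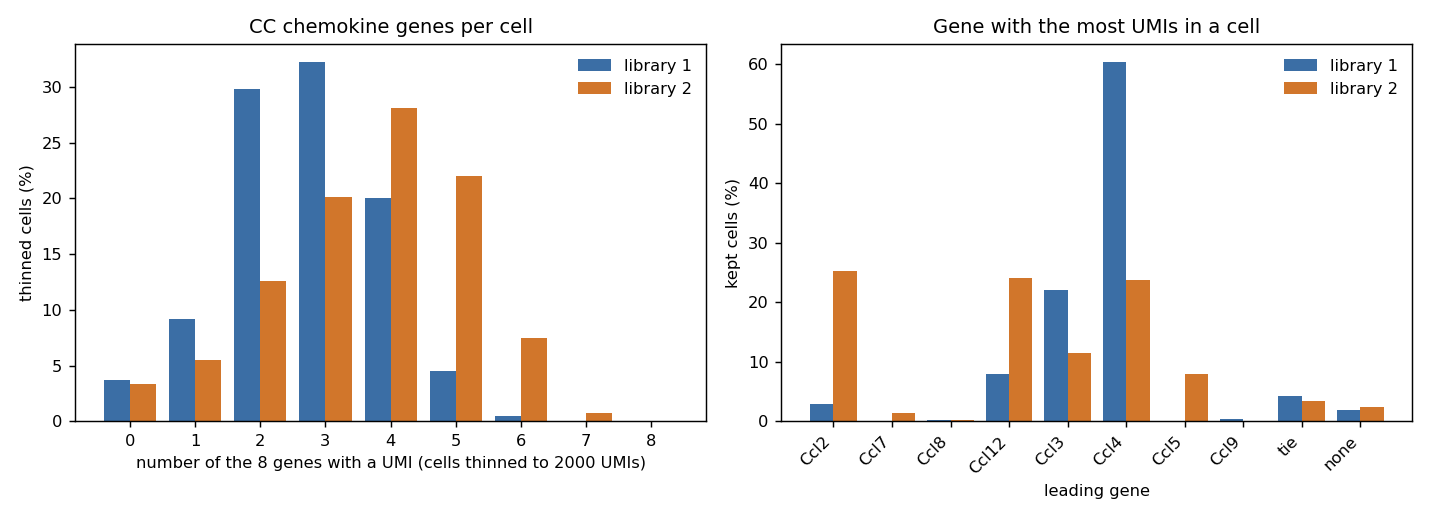
Number of the 8 CC chemokine genes with a UMI in cells thinned to 2000 UMIs (left, % of thinned cells) and the gene with the most UMIs in each kept cell (right, % of kept cells), by library. Library 2 is shifted to more genes per cell, and Ccl4 leads in 60.4% of the cells of library 1 but in 23.8% of those of library 2.

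Which genes shared cells was described with Spearman's correlation over thinned cells. All 28 pairs were computed in each library. Cells of 1 library share their preparation, so no p is given. Ccl3 and Ccl4, neighbours on the chromosome, were the pair most alike, at 0.57 in library 1 (3259 cells) and 0.62 in library 2 (1895 cells). Of the leading cells of Ccl3, 47.7% in library 1 and 55.2% in library 2 were also leading cells of Ccl4, which is 50.9% and 68.2% of those of Ccl4.

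Ccl2 and Ccl7 stood at 0.17 in library 1 and 0.40 in library 2. Of the few leading cells of Ccl7, 79.3% in library 1 and 61.7% in library 2 were leading cells of Ccl2 too, against 10.7% and 28.8% the other way. Ccl2 and Ccl12 stood at 0.24 and 0.22. Across the groups, Ccl2 and Ccl4 stood at 0.14 and 0.33, and Ccl2 and Ccl3 at 0.18 and 0.28. The most widespread genes of both groups thus overlapped in part in the same cells.

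By correlation the other genes had low values. Ccl5 lay between -0.06 and 0.08 with every other member in both libraries, and Ccl9 between -0.03 and 0.05. Where few cells hold a gene, ties keep this measure low, so such values cannot tell whether genes stand apart. Ccl5 was in 1.66% and 33.4% of thinned cells, and Ccl9 in 13.3% and 7.92%. In library 2 Ccl7, in 33.2% of thinned cells, still reached 0.40 with Ccl2. Leading cells were taken without thinning. Of the 6 leading Ccl5 cells of library 1, 5 were leading cells of Ccl3, 5 of Ccl4, 4 of Ccl12, 3 of Ccl2, 3 of Ccl9, 1 of Ccl7 and 0 of Ccl8. Their median depth was 28054.5 UMIs, against 7330.5 in the other cells. Of the 85 leading Ccl5 cells of library 2, 28.2% were leading cells of Ccl3, 23.5% of Ccl2 and 18.8% of Ccl4. Over all kept cells of library 2 these shares were 14.98%, 14.8% and 12.1%. Ccl8 lay between -0.03 and 0.09, on sparse counts, and with Ccl7 in library 1 it stood at 0.04 here but at 0.13 in a second random thinning.

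**Figure D4:**
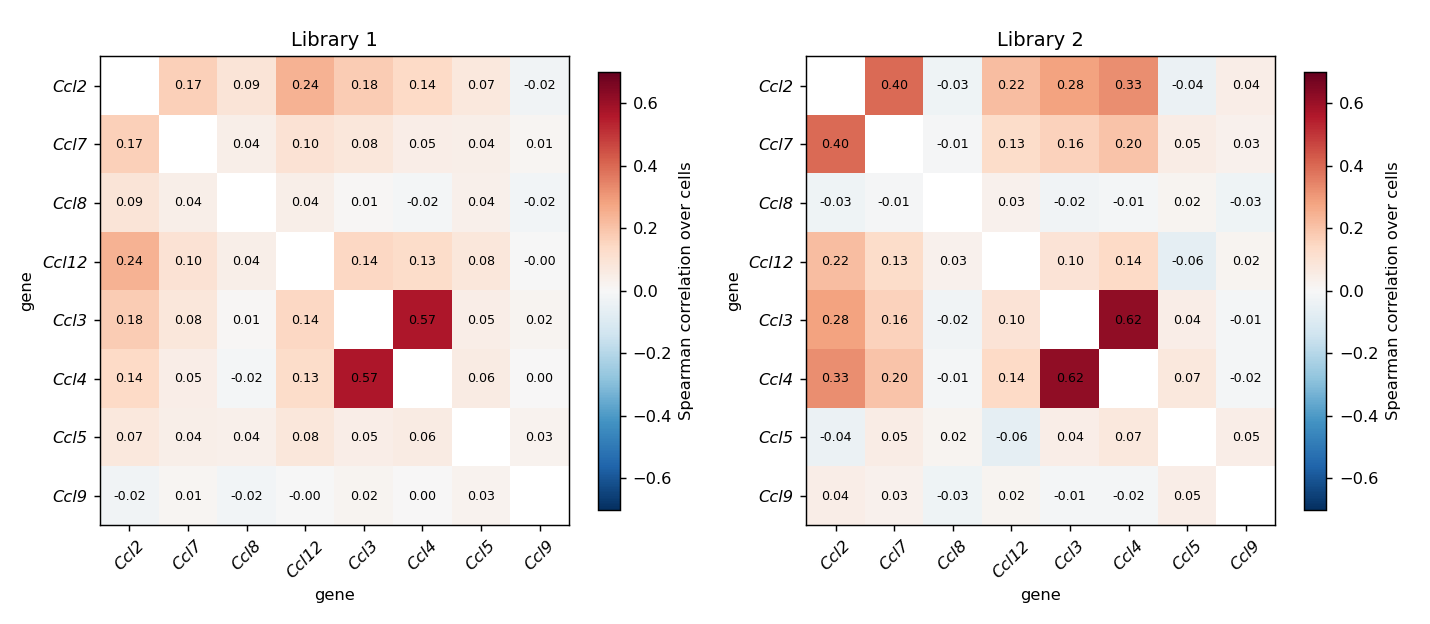
Spearman correlation over cells thinned to 2000 UMIs for each pair of the 8 genes, in library 1 (left, 3259 cells) and library 2 (right, 1895 cells). Ccl3 with Ccl4 is the strongest pair in both, at 0.57 and 0.62, and Ccl2 with Ccl7 is next in library 2, at 0.40.

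Beyond the family, Atf3 was the gene most like both Ccl3 and Ccl4 in both libraries. Among 4955 genes seen in at least 5% of thinned cells of library 1, after Ccl4 itself Ccl3 was most like Atf3 (0.26), H3f3b (0.21), Id2 (0.19) and Zfp36 (0.18), and in library 2, of 4941 genes, most like Atf3 (0.38), Rhob (0.37), Egr1 (0.36) and Btg2 (0.34). Atf3 and Egr1 encode transcription factors of the immediate early response. For Ccl4 they were, after Ccl3, Atf3 (0.33), Rgs1 (0.28), Id2 (0.21) and Tnf (0.20) in library 1, and Atf3 (0.39), Rhob (0.35), Rgs1 (0.35) and Btg2 (0.35) in library 2.

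Ccl2 was most like Ccl12 (0.24), Ier3 (0.19), Ccl3 (0.18), Junb (0.16) and the interleukin gene Il1a (0.16) in library 1. In library 2 it was most like Ccl7 (0.40), Ccl4 (0.33), Egr1 (0.32), Klf2 (0.32) and Fos (0.31), whose values in library 1 were 0.09 for Egr1, 0.06 for Klf2 and 0.00 for Fos. Ccl12 was most like Ccl2 (0.24), Junb (0.24) and Nfkbiz (0.23) in library 1, and like Ccl2 (0.22), Cxcl10 (0.19) and Ier5 (0.17) in library 2. Ccl5 was most like Cxcl10 (0.19) in library 1 and like Cxcl9 (0.35), Fth1 (0.34), Ly6i (0.22), Rps20 (0.22) and Cxcl16 (0.22) in library 2. Cxcl9 and Cxcl10 encode interferon-induced attractants of T cells. Ccl9 had no gene above 0.11.

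The immediate early and dissociation list differed between the libraries too. Its 19 genes together stood at 59616 CPM in library 1 against 22150 in library 2. None of the 19 was at least 2-fold higher in library 2 and 13 were at least 2-fold lower, with a median log2 ratio of -1.33. The most abundant were the AP-1 genes Jun, at 10544 and 2958 CPM, and Fos, at 9076 and 3606 CPM. Over thinned cells the summed list correlated with Ccl3 at 0.18 and 0.40, with Ccl4 at 0.16 and 0.38 and with Ccl2 at 0.08 and 0.35. With Ccl12 it stood at 0.08 and 0.15, with Ccl7 at -0.09 and 0.09, with Ccl8 at 0.00 and -0.03, with Ccl5 at -0.05 and -0.12 and with Ccl9 at -0.05 in both. The part of tissue handling in the chemokine levels was not tested.

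Of the 8 NF-kappaB feedback genes, which encode inhibitors and subunits of that factor, none was at least 2-fold higher in library 2 and 4 were at least 2-fold lower, with a median log2 ratio of -0.85. The most abundant, the inhibitor gene Nfkbia, stood at 2661 and 954 CPM, and Nfkbiz at 632 and 196 CPM. The interferon response list went the other way, with 13 of 14 genes at least 2-fold higher in library 2, a median log2 ratio of 3.70 and summed levels of 561 and 3454 CPM. Of its genes, Cxcl10 stood at 380 and 719 CPM. In the leading cells of library 2, the interferon list stood at 6875 CPM for Ccl5, against 3237 CPM in the other cells. For Ccl2 it stood at 5091 against 3045 CPM and for Ccl4 at 5509 against 3076 CPM. In both libraries the list was higher in the leading cells than in the others for each of the 8 chemokine genes. In library 1 the attractant gene Cxcl10 alone supplied 380 of the list's 561 CPM over all kept cells. Leading cells were not compared without Cxcl10. Over thinned cells of libraries 1 and 2 the interferon list correlated with Ccl5 at 0.16 and 0.11 and with Ccl2 at 0.13 and 0.19. With Ccl7 it stood at 0.08 and 0.21, with Ccl12 at 0.19 and 0.23 and with Ccl4 at 0.01 and 0.21. With Ccl3 it stood at 0.07 and 0.10, with Ccl8 at 0.01 and 0.03 and with Ccl9 at -0.01 and -0.02. Over the same cells the NF-kappaB feedback list correlated with Ccl2 at 0.14 and 0.29 and with Ccl3 at 0.20 and 0.25. With Ccl4 it stood at 0.12 and 0.30, with Ccl12 at 0.23 and 0.15 and with Ccl7 at 0.01 and 0.13. With Ccl5 it stood at 0.05 and 0.00, with Ccl8 at -0.01 and -0.03 and with Ccl9 at 0.01 and -0.02. In leading cells that list was lower than in the others for Ccl8 in both libraries and Ccl5 in library 1, and otherwise higher.

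Among clusters, which were built without the 8 genes or these lists, the microglia-like clusters of library 1 differed in level, and in each of the 7 with at least 20 cells Ccl4 or Ccl3 was the highest. Ccl4 ranged from 1026 CPM in cluster 6, led by histone genes, to 9692 CPM in cluster 3, led by Gm13889 and Atf3, 9.44-fold apart. Ccl3 ranged from 1200 to 4535 CPM in the same clusters. Cluster 2, with Gadd45b and Il1a among its leading genes, held 24.96% of the cells of library 1 but 54.6% of its Ccl7, 43.8% of its Ccl12 and 39.0% of its Ccl2 UMIs. Cluster 4, led by the heat shock genes Hspa1b and Hspa1a, had the lowest Ccl2 of the microglia-like clusters, 328 CPM, and the lowest Ccl12, 443 CPM.

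In the 4 microglia-like clusters of library 2 the highest and lowest levels were 1.51-fold apart for Ccl12, 2.59-fold for Ccl4 and 3.88-fold for Ccl5. Cluster 17, led by Cxcl9, Cxcl13 and Acod1, had the highest Ccl2 (3628 CPM), Ccl7 (981 CPM), Ccl3 (2328 CPM), Ccl4 (4118 CPM) and Ccl5 (1660 CPM). It held 20.3% of the cells of library 2 and 50.4% of its Ccl5 UMIs. Outside the microglia-like clusters, Ccl5 stood higher still in the 98 library 2 cells of the unnamed cluster 10, at 2517 CPM (2371 to 2670). It was seen in 60.2% of those cells, at a median depth of 3882.5 UMIs, and they held 6.50% of the Ccl5 UMIs of library 2. Cluster 12, led by the complement gene C4b and Gbp8, had the lowest Ccl5, 427 CPM, and the highest Ccl12, 2580 CPM. Cluster 15, led by the apolipoprotein genes Apoc1 and Apoe, had the lowest Ccl2 (1813 CPM), Ccl7 (391 CPM) and Ccl4 (1588 CPM). Without cluster 17 the same 5 genes were at least 2-fold higher and the same 2 at least 2-fold lower in library 2.

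**Figure D5:**
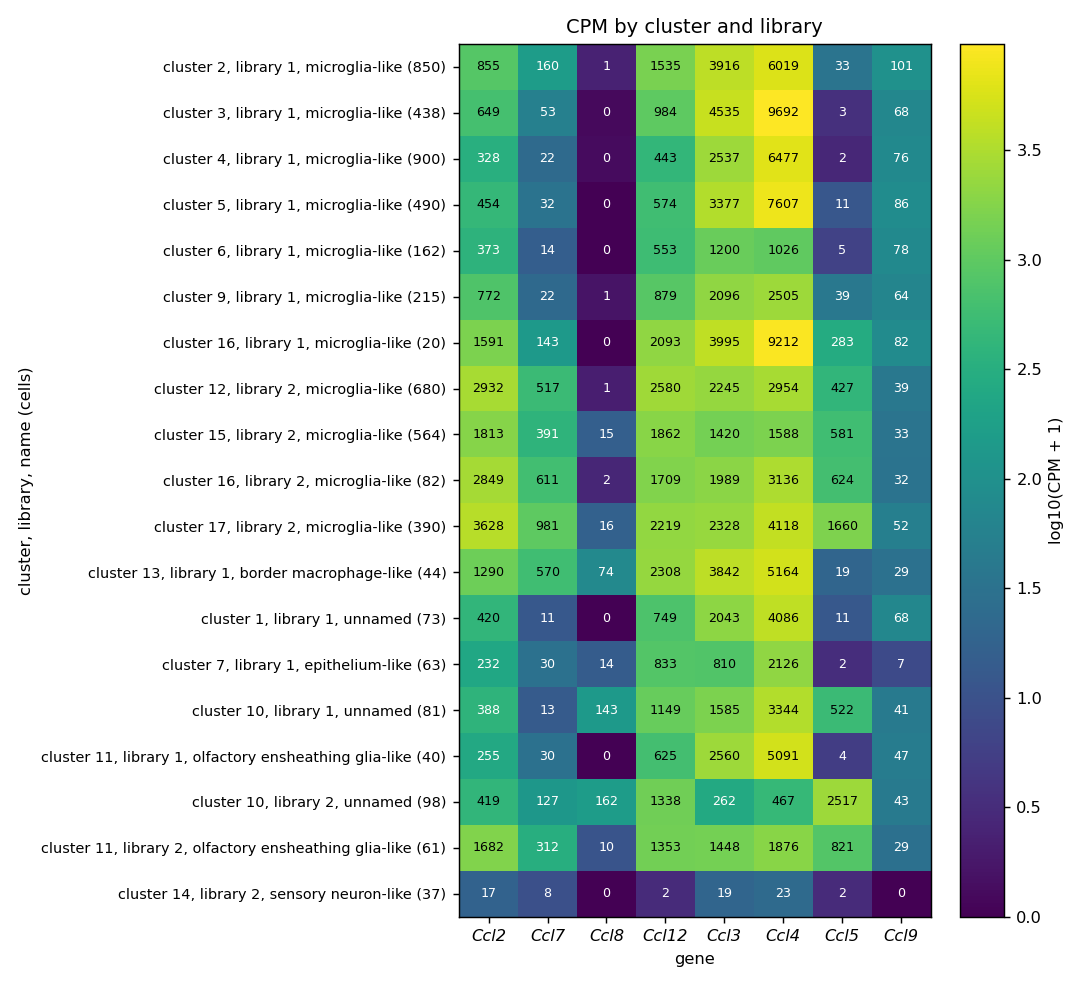
CPM of each CC chemokine gene (columns) in each cluster and library with at least 20 cells (rows), coloured on a log10 scale of the value plus 1 and printed as numbers. Cell numbers stand in brackets. Cluster 17 of library 2 shows the highest Ccl5 of the microglia-like clusters, 1660 CPM, and the sensory neuron-like cells show at most 23.3 CPM.

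Border macrophage-like cells, 44 cells of library 1 in cluster 13 with the macrophage genes Pf4, Ms4a7 and Mrc1 among their leading genes, held all groups of the family. They stood at 1290 CPM for Ccl2 (1190 to 1396), 570 CPM for Ccl7 (504 to 642), 2308 CPM for Ccl12, 3842 CPM for Ccl3 and 5164 CPM for Ccl4. Making up 1.29% of the cells of library 1, they held 12.9% of its Ccl7 and 35.0% of its Ccl8 UMIs.

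By cluster name, Ccl8 lay largely outside the microglia-like clusters in library 1 but not in library 2. Cells of microglia-like clusters held 14.0% of the Ccl8 UMIs of library 1 and 70.3% of those of library 2. By markers the libraries were closer. Cells with at least 5 of the 7 microglia markers held 24 of the 100 UMIs of library 1 and 78 of the 256 of library 2. Of the 3 leading cells of library 1, 2 held 20 UMIs of Ccl8 and 1 held 19. The first lay in cluster 13 with 6 of the 7 border macrophage markers. The other 2 lay in cluster 10, held 1771 and 733 UMIs in all and had no UMI of Ccl2 or Ccl7. Border macrophage markers summed to 10715 CPM in these 3 cells and to 89.4 CPM in the rest. In library 2 the 5 leading cells held 44, 34, 30, 16 and 14 UMIs, and 3 of them lay in microglia-like clusters, with 3, 2 and 4 of the 7 microglia markers. Microglia markers summed to 878 CPM in these 5 cells and to 3260 CPM in the rest of library 2. The cell with 44 Ccl8 UMIs also held 274 of Ccl2 and 183 of Ccl4.

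Ccl5 in library 1 came from few cells, of which the highest held 143 UMIs. That cell had 33027 UMIs in all, 6 of the 7 microglia markers, 4 blood endothelium and 4 lymphatic endothelium markers, and lay in cluster 10, which was unnamed and mixed haemoglobin, bone and endothelial genes. The next 5 held 76, 68, 59, 43 and 34 UMIs and lay in microglia-like clusters. In library 2 the highest 6 cells held 229 to 341 UMIs, all in cluster 17. The 6 T or NK cell markers were rare throughout library 2, with 19 UMIs in all its 1922 kept cells, and had 0 UMIs in the 85 leading Ccl5 cells, which allows up to 3.53% of these cells with such a UMI. At least 5 microglia markers were detected in 57.6% of those cells, against 79.1% of the others, at median depths of 13754 and 9725 UMIs.

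A small cluster of other leukocytes stood out in Ccl3 and Ccl9. The 10 cells of cluster 8 in library 1 were led by Ifitm1 and Cyp11a1 and had Cd200r3, Fcer1a, Cpa3 and Gata2, genes known from basophils and mast cells, among their 10 leading genes, and the cluster stayed unnamed. They were picked for description after their values were seen. Ccl3 ranged from 39 to 318 UMIs per cell with a median of 112, and microglia-like cells of library 1 had a median of 15. Ccl4 ranged from 6 to 307 UMIs with a median of 67, against 28, and Ccl9 from 1 to 23 with a median of 9, against 0. Their level of Ccl3 was 20792 CPM (19648 to 21986) and of Ccl9 1653 CPM (1342 to 2014). Making up 0.294% of the cells of library 1, they held 4.58% of its Ccl9 UMIs. Ccl7, Ccl8 and Ccl5 had 0 UMIs in them, which allows up to 50.6 CPM, and Ccl2 had 4 UMIs in 2 cells.

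Few cells could be told apart as endothelial, and these held few of the transcripts. Cells with at least 3 blood endothelium markers and at most 2 microglia markers, a rule set after the values were seen, numbered 13 in library 1 and 3 in library 2. The 13 cells held 9 chemokine UMIs in all, 5 of Ccl4, 3 of Ccl3 and 1 of Ccl12, at a median of 4606 UMIs per cell. Ccl2, Ccl7, Ccl8, Ccl5 and Ccl9 had 0 UMIs in them, which allows up to 53.8 CPM. The 3 cells of library 2 held 0 UMIs of the 8 genes, which allows up to 254 CPM. The rule leaves out barcodes that carry more microglial RNA, so low chemokine counts are in part set by the rule. Its markers are those of blood endothelium, while the gate aimed at lymphatic endothelium.

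Of the 15 other CC ligand genes, 6 had at least 20 UMIs over both libraries, and none was at least 2-fold higher and 3 were at least 2-fold lower in library 2. Those with at least 100 UMIs were Ccl6, a neighbour of Ccl9, at 122 and 45.1 CPM, Ccl25 at 13.5 and 15.9 CPM, Ccl24 at 10.4 and 9.61 CPM and Ccl27a at 3.26 and 4.09 CPM. Ccl21a, the lymphatic attractant of dendritic cells, had 262 UMIs in 5 cells of library 1 and 1 UMI in library 2. Ccl6 was the ligand most like Ccl9 in library 1, at only 0.08.

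Genes of the list of CC and atypical receptors were present as well. Ccrl2, an atypical receptor that does not signal as the others do, stood at 449 and 257 CPM. Ccr1 stood at 10.6 and 11.3 CPM. Ccr2, the receptor of the monocyte attractants, had 55 and 12 UMIs. Of the 15 receptor genes, 9 had at least 20 UMIs, none was at least 2-fold higher in library 2 and 4 were at least 2-fold lower, with a median log2 ratio of -0.98.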

How the data were processed

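Raw UMI counts for each gene and barcode were deposited by the authors as a whole-number matrix that Cell Ranger wrote, at version 3.1.0 per the file headers. Besides it, bcl2fastq and UMI-tools are named in the submitters' processing notes. Genome build and annotation: not given in the sources used here. Depth was 26269168 UMIs in the 3838 barcodes of library 1 and 21272560 in the 2434 of library 2. The filter left out 432 and 512 barcodes. Counts were summed per library or cluster with NumPy 2.4.6, SciPy 1.17.1 and Scanpy 1.11.5, checked on simulated data. Clusters came from 2000 variable genes without the 8 genes and the lists, 30 principal components, 15 neighbours and Leiden resolution 1. A cluster was named for a marker list when 3 or more of its genes stood within the 50 highest folds, or microglia-like where at least 5 of 7 markers reached 100 CPM. It stayed unnamed where several lists qualified or another list had more genes among the 10 highest folds. Low depth with none of the list's genes among those 10 also left it unnamed. Cluster 1, with 6 microglia markers over 100 CPM, stayed unnamed in this way, at 0.31 of its library's median depth. Scrublet called 1 cell per library, so the caller is taken to have failed, and doublets may remain. Likeness ranks named the top genes per member, other ligands and receptors needed 100 UMIs, and lists name their 2 most abundant genes, though some genes that these rules pick are not reported here. Clusters 8, 10, 13 and 17 and single cells were singled out after their values were seen. The members and lists were chosen with earlier results of these data known. Alternatives changed the filters, doublets, thinning, scale, thresholds and clustering.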

Additional observations from a re-analysis of the deposited data

Results flagged for a closer look

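Barcodes outside the cell filter, which entered only the alternative with no filter, also held these transcripts. The 432 such barcodes of library 1 held 376 UMIs of the 8 genes, 747 CPM (674 to 827), where a count of 3 would give 5.96 CPM and the kept cells stood at 11453 CPM. The 512 of library 2 held 558 UMIs, 563 CPM (518 to 612), where a count of 3 would give 3.03 CPM and the kept cells stood at 10797 CPM. The most frequent there were Ccl4 with 177 UMIs in library 1 and Ccl5 with 178 in library 2.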

How the results depend on the processing

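No paired analysis was possible because each condition is 1 pool and the libraries carry no replicate numbers. The number of genes at least 2-fold higher or lower, and the number with leading cells under 5% of kept cells, kept their values or stayed within 1.5 times under 55 of 62 comparisons with an alternative. The exceptions follow from thresholds and scale. Under a 4-fold limit 3 genes were higher and 0 lower. With a total free of mitochondrial, ribosomal protein and haemoglobin genes, and with a pseudocount of 10 CPM, 1 gene was lower. With a limit of 10% of kept cells 6 genes qualified in library 1 and 4 in library 2, and with 2% 1 gene did in library 2. No log2 ratio changed sign in any of the settings run, but many moved by more than counting error. Of the alternative log2 ratios, 58 lay outside the exact interval of the main value and 70 within it. For shares of leading cells these numbers were 16 and 160, by binomial intervals that are a rough guide only. For the share of a gene's UMIs in microglia-like clusters at other clustering resolutions they were 10 and 22. Ccl8 moved most, from 0.42 with the mean of per-cell CPM to 4.04 in microglia-like clusters only, beside 1.70 over all kept cells. Ccl5 ranged from 4.35 to 5.47. All 112 pair correlations at depths of 1000 and 5000 UMIs, and all 56 of a second random thinning, an alternative chosen after seeing the data, lay within 0.1 of those reported at 2000. The largest changes were Ccl3 with Ccl4 in library 2, from 0.62 to 0.52 at 1000 UMIs, and Ccl7 with Ccl8 in library 1, from 0.04 to 0.13 in the second thinning. Leaving out the shared barcodes, clusters 8 and 10 or cluster 17, alternatives chosen after seeing the data, changed none of the 4 counts. Depth limits Ccl8 most, with 100 and 256 UMIs.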
